A study of Mus musculus with 5 samples.

Results

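Chromosome 9 of the mouse holds, over a few megabases around the collagen gene Col6a4, a dense group of genes with little in common beyond their address. The members described here are the genes of the deposited expression table on chromosome 9 whose lower coordinate lies from 104000000 to 108500000 (GRCm38) and which had at least 20 counts summed over the 5 libraries. Rpl29 and gene names starting with Mrp were left out by the rule, which removed Rpl29 and Mrpl3. The table holds 48440 genes. Of these, 175 lie in the window, 82 had fewer than 20 counts, and 91 are members. The place of the window was chosen by the KO-over-WT differences of Col6a4 and Cpne4, both known to be lower in KO, so their own difference between the groups is given as a description without a test.

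RNA was sequenced from splenic regulatory T cells (Tregs), enriched as CD4+CD25+ cells with magnetic beads and used freshly isolated and untreated. The 3 KO libraries carry the genotype label CD4-KLF10-KO, a loss of the Krüppel-like transcription factor KLF10 in CD4+ T cells, and the 2 WT libraries carry the label WT. All 5 share the background C57B/6 and a high-fat diet. The driver of the deletion, the deleted part of Klf10, the age and sex of the mice and whether each library is a separate animal are not stated in the labels. A p-value here therefore reflects only how far these 5 libraries scatter, which may be technical.

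Type VI collagen is a beaded-filament protein of the extracellular matrix. Its best known form joins the chains encoded by Col6a1, Col6a2 and Col6a3, and the chains encoded by Col6a4, Col6a5 and Col6a6, which are neighbours on mouse chromosome 9, resemble the Col6a3 chain. In humans the counterpart of Col6a4 is broken and makes no working chain. Cpne4 encodes a copine, one of a family of cytosolic proteins that bind phospholipid membranes in the presence of calcium. The rest of the window holds genes that every cell uses, such as Rhoa and Gnai2, and genes known for their part in lymphocytes, such as Cish, which is switched on by interleukin 2 through the transcription factor STAT5 and restrains T cell receptor signalling.

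The promoters of Col6a4 and Cpne4, the pair the window was drawn around, and of Cish, for comparison an abundant member, are shown from 250 bases before to 50 bases after the start of the transcript (RefSeq, GRCm38.p6). Of the 91 members 70 matched a RefSeq promoter by symbol. Capitals mark GGGCGG and CACCC, letters of the kind read by Krüppel-like factors, and TTCNNNGAA, the letters read by STAT proteins, searched on both strands. The marked sites do not overlap. The Col6a4 promoter lies at chr9:106096642-106096941 on the minus strand. Cpne4 has a promoter window at chr9:104569405-104569704 and another at chr9:104587808-104588107, and the Cish promoter lies at chr9:107296409-107296708, all on the plus strand.
Col6a4: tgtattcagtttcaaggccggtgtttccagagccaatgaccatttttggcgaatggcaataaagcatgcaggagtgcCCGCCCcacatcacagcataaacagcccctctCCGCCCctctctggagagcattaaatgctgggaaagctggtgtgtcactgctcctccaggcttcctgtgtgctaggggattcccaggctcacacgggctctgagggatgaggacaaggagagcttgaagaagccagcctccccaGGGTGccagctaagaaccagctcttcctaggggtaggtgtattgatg
Cpne4, upstream start: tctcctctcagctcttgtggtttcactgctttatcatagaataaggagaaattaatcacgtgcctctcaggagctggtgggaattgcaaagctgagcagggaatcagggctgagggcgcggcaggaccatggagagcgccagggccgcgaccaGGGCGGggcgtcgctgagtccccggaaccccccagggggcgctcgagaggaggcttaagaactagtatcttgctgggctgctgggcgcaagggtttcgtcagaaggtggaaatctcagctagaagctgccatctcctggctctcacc
Cpne4, downstream start: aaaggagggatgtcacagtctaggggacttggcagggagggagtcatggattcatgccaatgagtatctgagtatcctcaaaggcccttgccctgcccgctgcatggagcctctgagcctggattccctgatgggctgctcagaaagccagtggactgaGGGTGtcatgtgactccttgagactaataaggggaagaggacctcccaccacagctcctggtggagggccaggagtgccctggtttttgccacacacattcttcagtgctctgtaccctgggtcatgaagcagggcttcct
Cish: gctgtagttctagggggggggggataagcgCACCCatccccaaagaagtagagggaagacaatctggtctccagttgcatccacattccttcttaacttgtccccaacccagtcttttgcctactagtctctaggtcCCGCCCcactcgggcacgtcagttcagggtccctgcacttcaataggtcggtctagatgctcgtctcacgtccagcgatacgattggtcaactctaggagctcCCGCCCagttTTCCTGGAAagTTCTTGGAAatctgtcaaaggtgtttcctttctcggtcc
The Col6a4 window holds 2 GGGCGG and 1 CACCC, the upstream Cpne4 window 1 GGGCGG, and the downstream Cpne4 window 1 CACCC. None of these 3 windows holds TTCNNNGAA, which occurs at 2 places just after the start in the Cish window. Over all 32851 promoters of the same length GGGCGG was found in 35.7%, CACCC in 57.5% and TTCNNNGAA in 8.3%, and over the 89 promoters of members in 53.9%, 67.4% and 10.1%. Members had at least 20 counts, while the 32851 promoters were taken whatever the counts of their genes. The 2 sets are therefore unlike, and the gaps between their shares are not read. A match in letters is a description and does not show that a factor binds there.

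Total counts per library lay between 25622614 and 30521797. Members took from 0.519% to 0.537% of the counts in KO libraries and 0.506% and 0.511% in WT libraries. Klf10 itself had 408, 331 and 271 counts in KO libraries, against 668 and 588 counts in WT libraries (log2 change −0.84, SE 0.22, edgeR adjusted p = 0.136, DESeq2 adjusted p = 0.0195). The preparations held Treg transcripts, and none of the 10 Treg markers was at 0 counts, with sums of 1943 to 2026 CPM (counts per 1000000, TMM-scaled) in KO libraries and 1938 and 2360 CPM in WT libraries. Of the 10, Tigit lay higher and Il2ra and Lrrc32 lay lower in every KO library. EdgeR called 0 of the 10, and DESeq2 called 1 higher (Tigit) and 2 lower (Il2ra and Lrrc32). The 10 B cell markers summed to 2857 to 3145 CPM in KO libraries and to 2439 and 3504 CPM in WT libraries, which overlap. Summed levels of erythroid and macrophage markers lay higher in KO libraries, and the sum of pan-T cell markers lay lower. The summed level of 15 erythroid markers was 56253 to 92872 CPM in KO libraries and 14866 and 20840 CPM in WT libraries, and all 15 lay higher in every KO library. EdgeR called 0 of them, and DESeq2 called 14 higher. For 13 macrophage markers the sum was 1471 to 1903 CPM in KO libraries and 562 and 861 CPM in WT libraries, and all 13 lay higher in every KO library. EdgeR called 3 of them higher, and DESeq2 called 13 higher. The sum of 14 pan-T cell markers was 3025 to 3175 CPM in KO libraries and 3440 and 3998 CPM in WT libraries, with 10 of 14 lower in every KO library. EdgeR called 0 of the 14, and DESeq2 called 5 lower. Over all genes tested every KO library lay above WT for 17.6% and below WT for 17.4%. EdgeR called 0.284% of all genes, and DESeq2 called 5.62% higher and 1.45% lower. No marker in these 3 lists was at 0 counts. In such bulk samples fewer cells of a type and less RNA per cell cannot be told apart.

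Col6a4 transcripts were almost absent from the KO libraries. The gene (ENSMUSG00000032572, protein-coding) lies on the minus strand from 105989454 to 106096783. It had 0, 2 and 0 counts in KO replicates 1, 2 and 3, against 484 and 714 counts in WT replicates 1 and 2. On the scaled level this is 0.025 ± 0.044 CPM in KO (SD, n = 3) and 21.7 ± 8.09 CPM in WT (SD, n = 2). Both WT libraries lie far above all KO libraries, and WT replicate 2 is the higher of them. A count of 0 allows up to 0.117 CPM in KO replicate 1 and up to 0.0982 CPM in KO replicate 3, taking 3 counts as the limit. Summed over libraries, the level in WT was 876 times that in KO, a value that rests on 2 KO counts and is given without an interval. Col6a4 passed the filter on low counts through the WT libraries alone. In GENCODE M21 3 other genes overlap it on the opposite strand, and whether the counting used strand is not stated.

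Cpne4 was lower in every KO library and was still detected in each. It lies on the plus strand from 104547286 to 105034544, 1.44 Mb before Col6a4 (measured between the lower coordinates of the genes). It had 30, 22 and 24 counts in KO libraries, against 243 and 292 counts in WT libraries, or 0.932 ± 0.211 CPM in KO (SD, n = 3) and 9.61 ± 2.26 CPM in WT (SD, n = 2). The fitted log2 change was −3.37 (SE 0.25). No KO library came near either WT library.

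**Figure D1:**
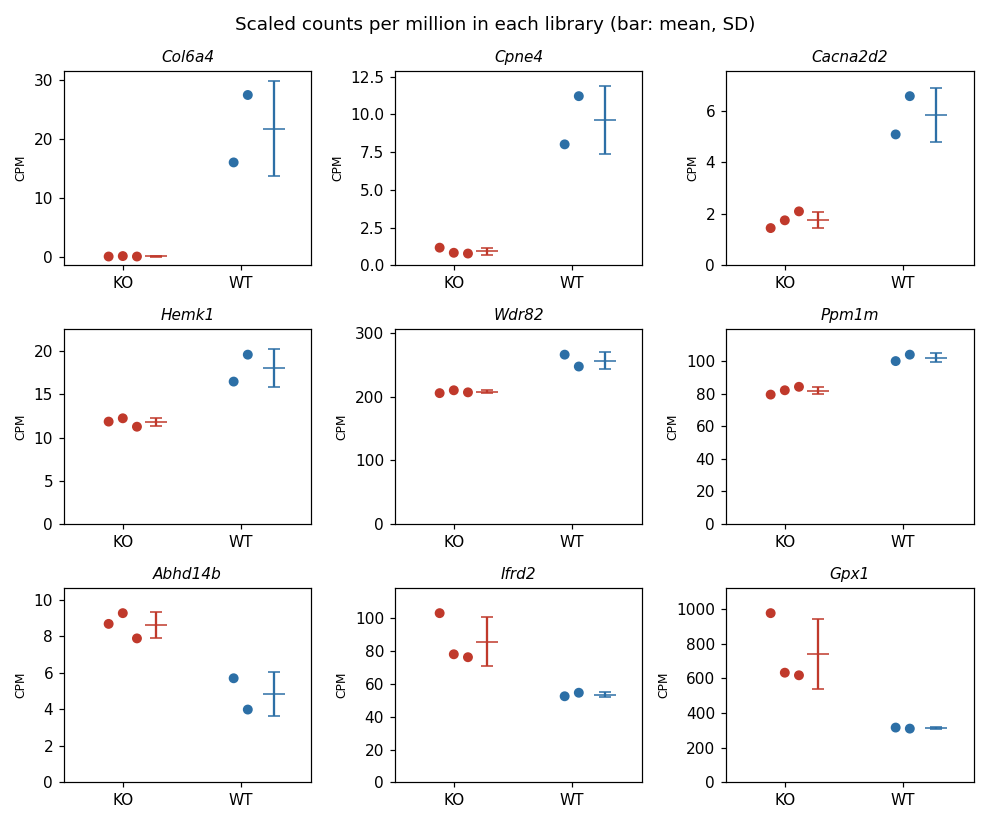
Scaled counts per 1000000 (CPM, linear axes from 0, with a small margin below 0 for Col6a4) of 9 members in each library, with KO on the left and WT on the right of each panel; points are libraries and bars the mean with its SD (n = 3 KO, n = 2 WT). Col6a4 sits at 0 to 0.0760 CPM in KO and at 15.96 and 27.4 CPM in WT, while Gpx1 lies at 618 to 977 CPM in KO and at 310.4 and 316 CPM in WT.

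The genes between and beside Cpne4 and Col6a4 did not show differences of that size. Between them 5 members were tested, and their log2 changes ran from −0.26 (Col6a6) to 0.07 (Nudt16). Pik3r4, the regulatory subunit of the class III phosphatidylinositol 3-kinase of endosomes and autophagy, stood at 69.5 ± 3.96 CPM in KO (SD, n = 3) and 70.9 ± 0.460 CPM in WT (SD, n = 2), with overlapping groups. Atp2c1, the calcium and manganese pump of the Golgi, stood at 65.4 ± 1.75 CPM in KO and 69.8 ± 0.237 CPM in WT, lower in every KO library (log2 change −0.09, SE 0.06, edgeR adjusted p = 0.482). On the other side of Col6a4 the nearest member is the antisense transcript D030055H07Rik at 0.159 Mb, with 12, 16 and 27 counts in KO libraries and 25 and 23 counts in WT libraries, which overlap. Glyctk, next along, also overlapped (log2 change −0.15). Wdr82, Ppm1m and Twf2, at 0.18 to 0.21 Mb, lay lower in every KO library by small log2 changes of −0.31, −0.32 and −0.24.

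Other type VI collagen chains were near the limit of detection in both groups. Col6a5 had 6, 12 and 8 counts in KO libraries and 6 and 2 counts in WT libraries, too few to be tested. Col6a6 had 8, 11 and 4 counts in KO libraries and 8 and 11 counts in WT libraries (log2 change −0.26, SE 0.58, adjusted p = 0.870 in edgeR). Of the chains encoded on other chromosomes, Col6a2 had 1, 9 and 6 counts in KO libraries and 3 and 14 counts in WT libraries. Col6a1 and Col6a3 had 18 and 5 counts in all. Of the 6 chains, Col6a4 in WT libraries alone had more than 14 counts in a library.

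The other copine genes are given beside Cpne4 for their values. Of these 8 genes 6 were tested and 0 were called by edgeR, where 0.284% of all genes were called. Cpne1 had 2689, 2495 and 2999 counts in KO libraries and 3093 and 2893 counts in WT libraries (log2 change −0.10, SE 0.07, edgeR adjusted p = 0.563). For Cpne3 the log2 change was −0.05 (SE 0.08, adjusted p = 0.782 in edgeR). Cpne2, Cpne5, Cpne7 and Cpne8 lay between −0.17 and 0.74 on the log2 scale, with edgeR adjusted p-values from 0.302 to 0.831. Cpne6 had 0 counts and Cpne9 had 11 counts in all. The deposited TPM (transcripts per 1000000, a level per gene length, not TMM-scaled) put Cpne1 highest, at 49.5 in KO and 60.1 in WT, against 0.396 TPM in KO and 4.65 TPM in WT for Cpne4.

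Across the window 81 members had enough counts to enter the fit. The window was drawn around Col6a4 and Cpne4, so no call is read for them. The counts below are over the other 79 members unless all 81 are named. Of these 79 members 0 were called (quasi-likelihood test of edgeR, adjusted over 14460 genes by Benjamini-Hochberg, false discovery rate of 0.05), where 0.284% of all genes were called, 0.228% higher and 0.0553% lower in KO. Without KO replicate 1 edgeR called 3 of them (Gpx1, Ifrd2 and Cacna2d2), where 2.32% of all genes were called, and without any other single library it called 0, where between 0.00697% and 0.303% of all genes were called. With all libraries 9 higher and 9 lower ones had an unadjusted p under 0.05, a limit that 10.7% of all genes reached as higher and 5.62% as lower (16.4% in all). The DESeq2 Wald test called 3 of them higher (Gpx1, Ifrd2 and Abhd14b) and 4 lower (Cacna2d2, Hemk1, Wdr82 and Ppm1m), where it called 7.07% of all genes, 5.62% higher and 1.45% lower. Log2 changes of these 79 members had a median of −0.022 and quartiles of −0.11 and 0.27, against a median of −0.014 and quartiles of −0.12 and 0.16 over all genes tested. For 69 of the 79 the change was under 0.5 in either direction. Over all 81 members tested, Col6a4 and Cpne4 included, the groups did not overlap for 31, against 35% over all genes tested. KO lay above WT for 14 and below WT for 17. The 17 include that pair, whose low KO values placed the window.

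**Figure D2:**
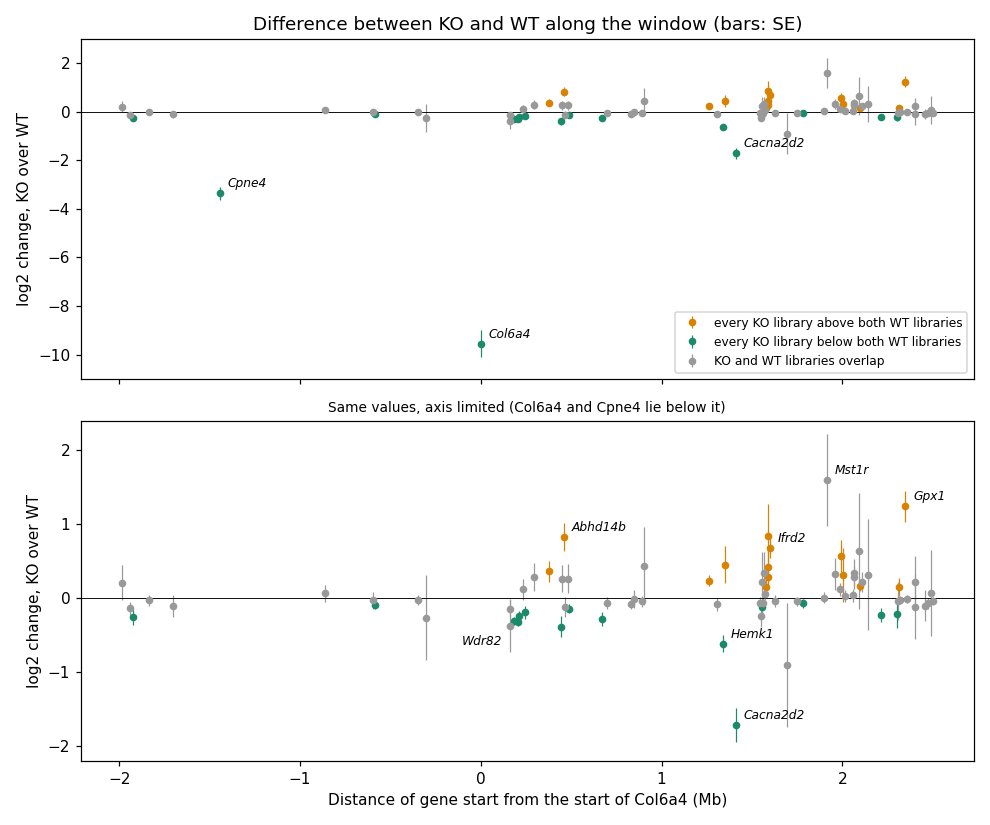
Fitted log2 change of KO over WT (vertical axis; bars are SE) for the 81 members tested against the distance of the gene's lower coordinate from that of Col6a4 in Mb (horizontal axis), with the lower panel limited to smaller changes. Col6a4 (−9.56, a fitted value that depends on the prior count) and Cpne4 (−3.37) stand alone, Cacna2d2 (−1.71) follows, and most other members lie near 0.

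With the libraries scaled instead to the 14 pan-T cell markers, the median of all genes stood at 0.24 and that of the members at 0.23 on the log2 scale. Then 5 members were called higher (Gpx1, Ifrd2, Abhd14b, Mapkapk3 and Dusp7) and, leaving Col6a4 and Cpne4 aside, 1 lower (Cacna2d2), where 7.9% of all genes were called, 7.72% higher and 0.18% lower. With the TMM scaling 33 of the 41 calls over all genes were higher in KO, and with the pan-T cell scaling 1116 of 1142. Of 44 members named by rule 15 had the other sign under the pan-T cell scaling, among them Twf2, Rhoa, Gnai2, Cish, Dag1 and Alas1, so small changes below are read relative to the median of all genes.

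By position, the members before Col6a4 had 3 of 11 tested with every KO library below WT (Acad11, Cpne4 and Atp2c1) and 0 above. Cpne4 helped to place the window, so nothing is read from its place among them. In the first megabase after Col6a4 7 of 21 lay below and 2 above. From 1 to 2 Mb after it 4 of 26 lay below and 8 above, and farther on 2 of 22 lay below and 4 above. Over all genes tested KO lay below WT in 17.4% and above in 17.6%. These counts are a description. The bins were set after the values were seen and were not tested.

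Cacna2d2 had the lowest log2 change after that pair, without passing the threshold in the edgeR test. It encodes the α2δ-2 auxiliary subunit of voltage-gated calcium channels and lies on the plus strand from 107399612 to 107529343, 1.41 Mb after Col6a4. It had 37, 46 and 64 counts in KO libraries, against 154 and 171 counts in WT libraries, or 1.76 ± 0.324 CPM in KO (SD, n = 3) and 5.82 ± 1.05 CPM in WT (SD, n = 2). The groups did not overlap. The log2 change was −1.71 (SE 0.23, edgeR adjusted p = 0.0598, DESeq2 adjusted p = 1.6e-06), and it was called by edgeR in 6 alternative settings, among them without KO replicate 1 (adjusted p = 0.0331) and a false discovery rate of 0.10.

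Hemk1, Wdr82 and Ppm1m also lay lower in every KO library and were called by DESeq2 but not by edgeR. Hemk1, a methyltransferase of mitochondrial translation release factors, had 303, 322 and 344 counts in KO libraries and 500 and 511 counts in WT libraries (11.8 ± 0.491 CPM in KO, SD, n = 3, and 18.1 ± 2.21 CPM in WT, SD, n = 2; log2 change −0.61, SE 0.11, edgeR adjusted p = 0.0723, DESeq2 adjusted p = 0.00171). Wdr82, a subunit of the SET1 complexes that methylate histone H3, stood at 208 ± 2.32 CPM in KO and 257 ± 13.2 CPM in WT (log2 change −0.31, SE 0.06, edgeR adjusted p = 0.0786). Ppm1m, a phosphatase of the PP2C family, stood at 82.1 ± 2.402 CPM in KO and 102 ± 2.80 CPM in WT (log2 change −0.32, SE 0.06, edgeR adjusted p = 0.0742). The pan-T cell scaling moved the median log2 change of all genes tested from −0.014 to 0.24. Under it Wdr82 and Ppm1m stood at −0.05 (SE 0.11) and −0.06 (SE 0.12), still below that median. The log2 change of Hemk1 was then −0.37 (SE 0.17, edgeR adjusted p = 0.189), and that of Cacna2d2 −1.47 (SE 0.26, edgeR adjusted p = 0.0109). The part of the cell make-up in these differences was not tested.

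Gpx1 was the most abundant member and was higher in KO in value. It encodes glutathione peroxidase 1, a selenium enzyme that removes hydrogen peroxide and is plentiful in red cells. It had 24960, 16655 and 18878 counts in KO libraries, against 9593 and 8086 counts in WT libraries, or 977, 633 and 618 CPM in KO and 316 and 310.4 CPM in WT. No KO library overlapped the WT range, and KO replicate 1 stood highest. The log2 change was 1.24 (SE 0.21, edgeR adjusted p = 0.0690, DESeq2 adjusted p = 3.8e-07), and without KO replicate 1 it was 1.003 (SE 0.07) and called (edgeR adjusted p = 0.00438). KO replicate 1 also had the highest summed level of the 15 erythroid markers, 92872 CPM against 56253 and 56346 CPM in the other KO libraries and 20840 and 14866 CPM in WT libraries. The part of red cell precursors in the Gpx1 difference was not tested.

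Ifrd2, like Gpx1, was highest in KO replicate 1 and lay above WT in every KO library. Its protein was found on inactive ribosomes of rabbit reticulocytes. It stood at 103, 78.1 and 76.3 CPM in KO libraries and at 52.5 and 54.7 CPM in WT libraries (log2 change 0.68, SE 0.14, edgeR adjusted p = 0.0843, DESeq2 adjusted p = 0.00101). Without KO replicate 1 the log2 change of Ifrd2 was 0.53 and was called (edgeR adjusted p = 0.0202). Abhd14b, an alpha/beta hydrolase, stood at 8.69, 9.27 and 7.89 CPM in KO libraries and at 5.71 and 3.99 CPM in WT libraries (log2 change 0.82, SE 0.19, edgeR adjusted p = 0.104, DESeq2 adjusted p = 0.00768). In neither gene did the groups overlap. In GENCODE M21 Abhd14b shares bases with Abhd14a on the other strand. In the deposited coordinates they do not overlap, as Abhd14a ends at 106447678 and Abhd14b starts at 106447788. Whether reads are shared depends on the annotation used for counting, which is not given. Abhd14a itself had overlapping groups (log2 change 0.27, SE 0.19).

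**Figure D3:**
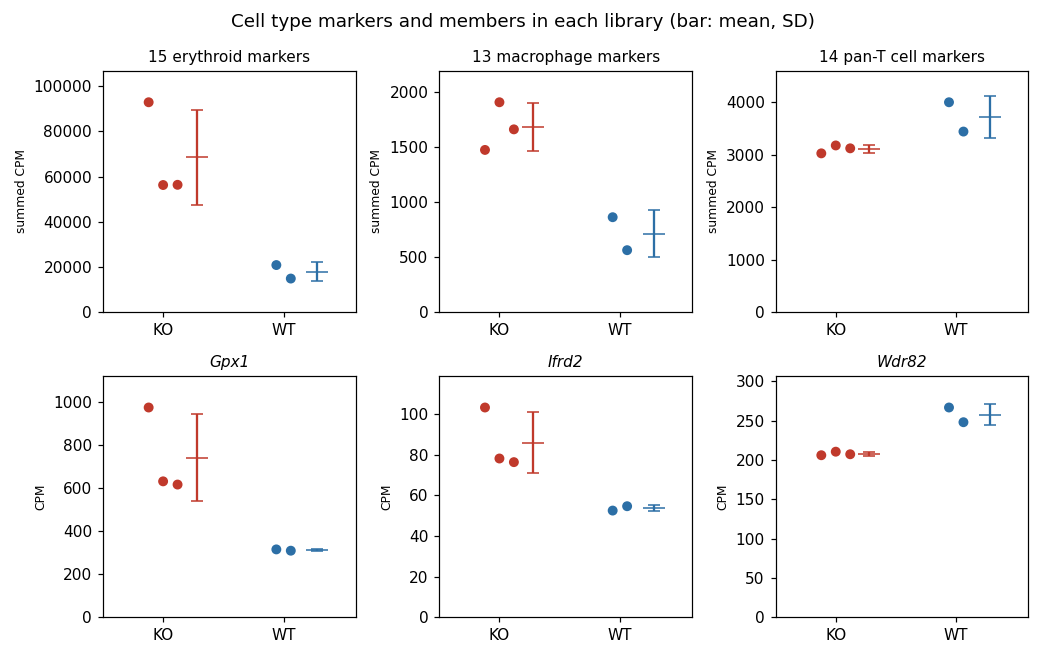
Summed scaled counts per 1000000 (CPM) of 15 erythroid, 13 macrophage and 14 pan-T cell markers (upper row) and of Gpx1, Ifrd2 and Wdr82 (lower row) in each library, KO left and WT right; points are libraries, bars the mean with its SD (n = 3 KO, n = 2 WT). Erythroid markers sum to 56253 to 92872 CPM in KO and to 14866 and 20840 CPM in WT, and Gpx1 is highest in the KO library where they are highest.

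The window encodes a ligand and its receptor, Mst1 (macrophage-stimulating protein) and Mst1r (the receptor tyrosine kinase RON), both at low levels. Mst1r had 36, 34 and 14 counts in KO libraries and 7 and 12 counts in WT libraries. Its fitted difference did not pass (1.601 on the log2 scale, SE 0.62, edgeR adjusted p = 0.273), and after scaling the lowest KO library, at 0.458 CPM, lay below the higher WT library, at 0.461 CPM. Mst1 had 38, 17 and 31 counts in KO libraries and 36 and 3 counts in WT libraries. Its sign rests on WT replicate 2, as the log2 change was 0.65 with all libraries (SE 0.78, edgeR adjusted p = 0.745), −0.18 without WT replicate 2 and 3.14 without WT replicate 1. Mst1 also shares bases with Rnf123 on the other strand.

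Among 18 members with a part in lymphocyte signalling or the cytoskeleton 16 were tested and 0 were called by edgeR, with 4 higher and 2 lower at an unadjusted p under 0.05 and 1 (Ppm1m) lower by DESeq2. Over all genes the shares were 10.7% higher and 5.62% lower at that p, 0.284% called by edgeR and 7.07% by DESeq2. Gnai2, the inhibitory G protein that chemokine receptors use, had 17325, 18618 and 20000 counts in KO libraries and 19833 and 19316 counts in WT libraries (log2 change −0.04, SE 0.08, edgeR adjusted p = 0.862). Ip6k1, a kinase that makes inositol pyrophosphates, stood at 242 ± 15.6 CPM in KO (SD, n = 3) and 237 ± 16.2 CPM in WT (SD, n = 2), with overlapping groups. Rhoa, a GTPase of the actin cytoskeleton, stood at 393 ± 6.61 CPM in KO (SD, n = 3) and 399.6 ± 14.4 CPM in WT (SD, n = 2), with overlapping groups. Cish stood at 162 ± 10.1 CPM in KO and 171 ± 17.0 CPM in WT (log2 change −0.08, SE 0.09, edgeR adjusted p = 0.713). Mapkapk3, a kinase downstream of p38, did not overlap between groups, with 87.6, 91.6 and 92.9 CPM in KO libraries and 81.6 and 72.0 CPM in WT libraries (log2 change 0.24, SE 0.07, edgeR adjusted p = 0.186). Dusp7, a phosphatase of ERK kinases, was at 44.7, 50.4 and 53.5 CPM in KO libraries and at 44.4 and 32.5 CPM in WT libraries (log2 change 0.36, SE 0.15, edgeR adjusted p = 0.290). Fam212a (Inka1 in GENCODE M21), which encodes an inhibitor of the kinase PAK4, had 113, 86 and 123 counts in KO libraries and 87 and 62 counts in WT libraries, apart after scaling (log2 change 0.57, SE 0.21, edgeR adjusted p = 0.264). Tlr9, the sensor of unmethylated DNA in B cells and dendritic cells, overlapped between groups at 58.0 to 66.3 CPM in KO and 47.4 and 65.1 CPM in WT. Ackr4, a scavenging receptor for the chemokines of lymphoid organs, had 21 counts in all and was not tested.

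Of 7 members of the ubiquitin and ubiquitin-like systems 0 were called by edgeR or DESeq2, 0 had an unadjusted p under 0.05 and in all 7 the groups overlapped. Over all genes 0.284% were called by edgeR, 7.07% by DESeq2 and 16.4% had such a p, and 35% did not overlap, so these counts are no result about the group. Usp4 and Usp19, which remove ubiquitin, had log2 changes of −0.01 (SE 0.06) and −0.04 (SE 0.06). Uba7, the enzyme that activates the ubiquitin-like protein ISG15, stood at 189 ± 7.20 CPM in KO (SD, n = 3) and 174 ± 21.5 CPM in WT (SD, n = 2). Rnf123, a ubiquitin ligase, spread widely within both groups, at 262, 184 and 219 CPM in KO and 202 and 146 CPM in WT (log2 change 0.35, SE 0.19, edgeR adjusted p = 0.423).

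Of 12 members listed under RNA or chromatin, a loose list that also holds Poc1a, 0 were called by edgeR. At an unadjusted edgeR p under 0.05 1 was higher and 3 lower, and DESeq2 called 1 higher and 2 lower, named above. The shares over all genes were 10.7% and 5.62% at that p, and 5.62% and 1.45% by DESeq2. The splicing factors Rbm5 and Rbm6 had log2 changes of −0.04 (SE 0.06) and −0.07 (SE 0.06), and Rbm15b, a cofactor of RNA methylation, −0.04 (SE 0.08). Parp3, an ADP-ribosyl transferase of the DNA damage response, stood at 58.2, 68.5 and 69.2 CPM in KO libraries and at 66.7 and 41.8 CPM in WT libraries, so WT replicate 2 lay apart from the other 4.

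Of 13 members listed under metabolism, a loose list that also holds Nicn1, 0 were called by edgeR. At an unadjusted edgeR p under 0.05 3 were higher and 1 lower, and DESeq2 called 2 higher (Gpx1 and Abhd14b). Over all genes these shares were 10.7%, 5.62% and 5.62%. Alas1, the first enzyme of haem synthesis outside red cell precursors, stood at 19.2, 21.6 and 22.2 CPM in KO libraries and at 23.5 and 24.5 CPM in WT libraries (log2 change −0.19, SE 0.09, edgeR adjusted p = 0.381). Apeh, a peptidase that removes acylated residues, was at 125 ± 6.24 CPM in KO (SD, n = 3) and 112 ± 0.625 CPM in WT (SD, n = 2), without overlap (log2 change 0.16, SE 0.06, edgeR adjusted p = 0.297). Acy1, which frees amino acids from their acetylated forms, was at 13.1 ± 0.581 CPM in KO and 17.2 ± 3.64 CPM in WT (log2 change −0.38, SE 0.14, edgeR adjusted p = 0.265). Its size rests on the WT libraries, as the log2 change was −0.15 without WT replicate 2 and −0.59 without WT replicate 1. Gmppb, an enzyme of mannose donor synthesis, had a log2 change of 0.04 (SE 0.09).

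Besides Cpne4, 7 members belong to the secretory and endosomal system. Of these 0 were called by edgeR, where 0.284% of all genes were, and 1 (Tex264) was lower at an unadjusted p under 0.05, where 5.62% of all genes were. Tex264, a receptor for the removal of endoplasmic reticulum by autophagy, stood at 35.0, 41.0 and 34.1 CPM in KO libraries and at 44.7 and 44.3 CPM in WT libraries (log2 change −0.28, SE 0.09, edgeR adjusted p = 0.217). Manf, a protein of the endoplasmic reticulum induced by stress, was at 98.0 ± 3.57 CPM in KO (SD, n = 3) and 98.7 ± 19.99 CPM in WT (SD, n = 2). Dnajc13, an endosomal co-chaperone, had a log2 change of −0.03 (SE 0.07).

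Besides Col6a4, 6 matrix-related members were tested and 0 were called by edgeR, where 0.284% of all genes were called. Dag1, the matrix receptor dystroglycan, stood at 38.1, 36.3 and 36.8 CPM in KO libraries and at 39.5 and 47.3 CPM in WT libraries (log2 change −0.23, SE 0.09, edgeR adjusted p = 0.287). The hyaluronidase genes Hyal1, Hyal2 and Hyal3 did not pass the test. In value they lay higher in every KO library, as 17.6% of all genes did, with log2 changes of 0.43 (SE 0.24), 0.15 (SE 0.12) and 0.85 (SE 0.42) and edgeR adjusted p-values of 0.450, 0.593 and 0.388. Hyal3 had a log2 change of 0.41 without WT replicate 1 and 1.44 without WT replicate 2. Hyal1 and Hyal3 share bases with each other and with Nat6 (Naa80 in GENCODE M21) on the same strand, so their reads are uncertain. Nat6 also did not overlap, with 14.6 ± 0.490 CPM in KO libraries and 11.96 ± 0.401 CPM in WT libraries (log2 change 0.28, SE 0.10, edgeR adjusted p = 0.213).

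Of 7 genes known mainly from neurons or cilia 6 were tested and 0 were called by edgeR, with Cacna2d2, described above, lower in DESeq2. Over all genes edgeR called 0.284% and DESeq2 7.07%. Bsn, a scaffold protein of nerve endings, had 293, 289 and 286 counts in KO libraries and 287 and 225 counts in WT libraries, which overlap after scaling (log2 change 0.23, SE 0.13, edgeR adjusted p = 0.467). Amigo3, a membrane protein first known from neurons, had a log2 change of 0.28 (SE 0.15), with overlapping groups. Sema3f had 5, 14 and 1 counts in KO libraries and 11 and 15 counts in WT libraries, a spread that allows no statement of direction.

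**Figure D4:**
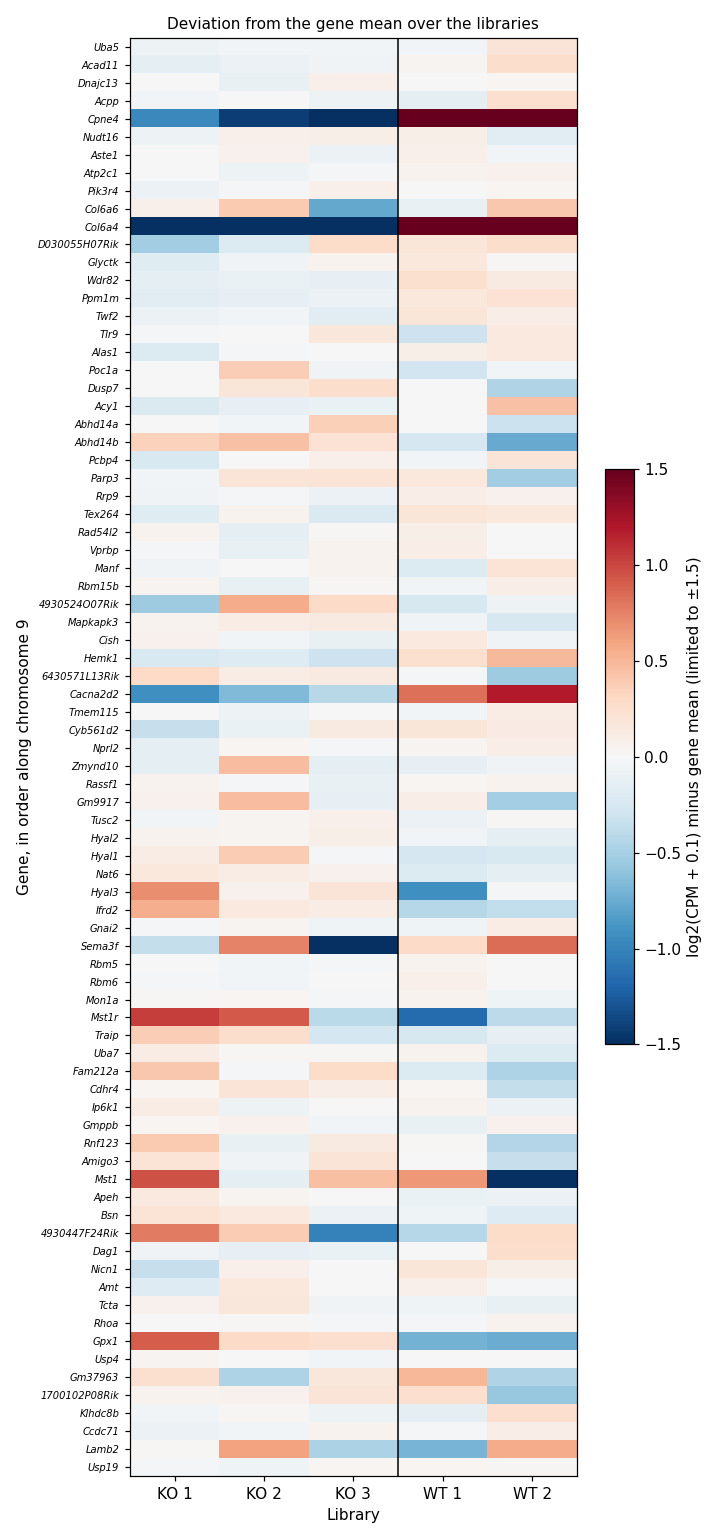
Log2(CPM + 0.1) of 80 of the 81 members tested minus each gene's mean over the 5 libraries (colour, limited to ±1.5), with genes in order along chromosome 9 and libraries in columns, KO left and WT right of the line. Cpne4, Col6a4 and Cacna2d2 are low in all 3 KO libraries, Gpx1 is high in them, and Mst1 is low in WT replicate 2.

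Levels of the members, compared per gene length by the deposited TPM, spanned from Gpx1, at 1540 TPM in KO and 744 TPM in WT, to Dock3, at 0.0173 TPM in KO and 0.0616 TPM in WT. Over the 5 libraries 5 members had a mean of 100 TPM or more, 40 lay from 10 to 100 TPM, 25 from 1 to 10 TPM and 21 under 1 TPM. After Gpx1 came Gnai2, at 405 TPM in KO and 469 TPM in WT, Rhoa, at 317 TPM in KO and 365 TPM in WT, Wdr82, at 125 TPM in KO and 175 TPM in WT, and Twf2, a protein that binds actin, at 126 TPM in KO and 168 TPM in WT. Wdr82 and Twf2 are neighbours in this order and did not differ from each other beyond their spread over the libraries. At the level of WT libraries Col6a4 and Cpne4 were low genes, at 6.44 TPM and 4.65 TPM. Col6a4 was at 0.00694 TPM in KO. The TPM are not TMM-scaled, so small gaps between KO and WT values are not read. On the TMM-scaled counts the log2 changes of Gnai2, Rhoa, Wdr82 and Twf2 were −0.04, −0.02, −0.31 and −0.24.

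**Figure D5:**
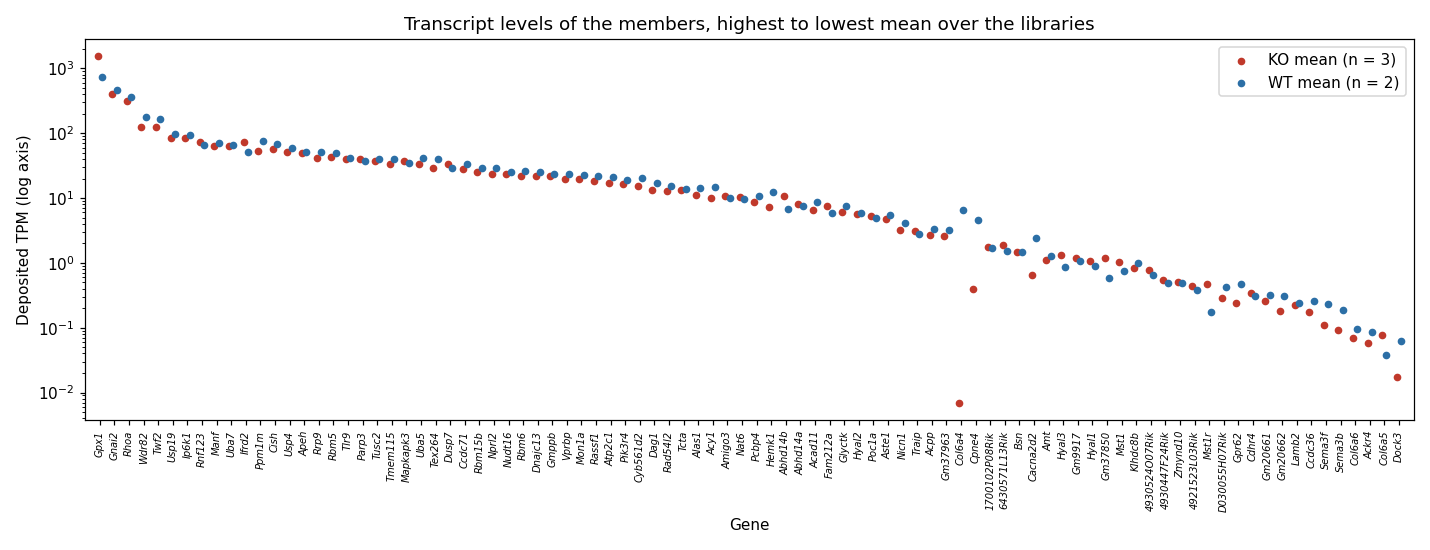
Deposited TPM (not TMM-scaled, log axis) of 90 of the 91 members, in order of their mean over the 5 libraries from left to right, with the KO mean (n = 3) left of the WT mean (n = 2) for each gene. For most members the pair of points lies close together, and the widest gaps are those of Col6a4 (0.00694 TPM in KO, 6.44 TPM in WT) and Cpne4 (0.396 TPM in KO, 4.65 TPM in WT).

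The 10 members that could not be tested had from 21 to 37 counts over the 5 libraries. Just inside the limit of 20 counts stand Ackr4 with 21 and Gm20662 with 25 counts, and just outside it Gm34106 with 17 and Gm17040 with 13 counts. By type 84 members are protein-coding and 7 are noncoding transcripts in GENCODE M21, and 63 share bases with another annotated gene. Among the noncoding members Gm9917, antisense to Rassf1, had 76, 104 and 79 counts in KO libraries and 92 and 51 counts in WT libraries (log2 change 0.34, SE 0.29, edgeR adjusted p = 0.626). 4930524O07Rik, which overlaps Manf and Dock3 on the other strand, had 5, 14 and 13 counts in KO libraries and 8 and 8 counts in WT libraries and passed the filter on low counts through KO libraries alone. The protein-coding member 6430571L13Rik did not overlap between groups, with 2.28 to 2.62 CPM in KO libraries and 1.42 and 2.08 CPM in WT libraries (log2 change 0.45, SE 0.25, edgeR adjusted p = 0.428).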

How the data were processed

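Total RNA of 3 KO and 2 WT Treg preparations was sequenced without its ribosomal RNA, which was removed first per the labels' protocols. The submitters' processing notes name Trimmomatic 0.36, STAR 2.5.2b and the build GRCm38. How reads were counted, on which annotation and whether by strand, is not given in the sources used, so reads of overlapping genes are uncertain. The authors deposited whole-number counts per gene, which all tests used, RPKM values (not used), TPM values, used for levels between genes, and a signal column named CPM that does not sum to 1000000 and was not used. All columns were matched to libraries by their codes, and 0 were left over. The WT codes start with A and the KO codes with B, so whatever the letter stands for cannot be told apart from genotype.

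The filter filterByExpr left 14460 genes. Libraries were TMM-scaled, and KO was set against WT in edgeR 4.0.16 under R 4.3.3 (glmQLFit, glmQLFTest, no covariate), with Benjamini-Hochberg adjustment and a false discovery rate of 0.05. DESeq2 1.42.0 was an alternative, as were other scalings and filters, robust estimation, a block and leaving out libraries. The SE of a log2 change is its size over the square root of F. The biological coefficient of variation was 13.1%, so counting error matters mainly for low genes. Within each group no libraries were alike within counting error (chi-square per degree of freedom, 16.5 to 39.1). The test was also run on simulated counts, with the same variation for every gene and no difference in cell make-up. That run does not show how the test behaves on these libraries. Types, strands and overlaps are from GENCODE M21, promoters from RefSeq.

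The members and lists were chosen with earlier results of these data known. Genes named are Col6a4 and Cpne4, called members, the 10 highest and 10 lowest log2 changes, the 10 highest TPM, up to 4 abundant members of each functional group, members near the limit of 20 counts, and type VI collagens and copines. Other members named were chosen after their values were seen. The values of 1 member are not reported here, though it is in all counts.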

Additional observations from a re-analysis of the deposited data

How the results depend on the processing

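The direction of Cacna2d2, Hemk1, Wdr82, Ppm1m, Gpx1, Ifrd2 and Abhd14b held in all alternatives run. Col6a4 and Cpne4, the only members called in the main fit, also kept their sign. Their low KO values placed the window, so nothing is read from that. With all libraries 0 members were called higher and 2 lower, where 0.284% of all genes tested (41 genes) were called. Counts of lower members include Col6a4 and Cpne4, around which the window was drawn, and nothing is read from them. With pan-T cell scaling 5 members were higher, where 7.72% of all genes were called higher (1142 genes called in all). The members' median log2 change then moved to 0.23. Without the filter 2 were higher and 6 lower, where 2.48% of all genes were called higher and 0.335% lower (589 genes in all). With a mean of 50 counts 23 genes were called (0.193%). DESeq2's test called 3 members higher and 6 lower, where it called 5.62% of all genes higher and 1.45% lower (1022 genes in all). A false discovery rate of 0.10 gave 2 and 6, against 3.44% and 0.567% of all genes (579 genes in all). Leaving out antigen receptor, haemoglobin, mitochondrial and ribosomal RNA genes gave 118 genes (0.838%).

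Leaving out 1 KO library at a time gave 0 to 2 members higher and 0 to 3 lower. Of all genes 0.00697% to 2.32% (1 to 334 genes) were then called. With any 1 library left out, KO or WT, the members' median log2 change lay between −0.026 and −0.0034. The fitted log2 change of Cpne4 lay between −3.59 and −3.11 over these fits. The cause of the moves was not tested. With 1 WT library left, that library is assumed to vary like the KO libraries.

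With the replicate number as a block, and leaving Col6a4 and Cpne4 aside, 0 members were called, where 0.221% of all genes (32 genes) were called. The members' median log2 change was then −0.0080, and the log2 change of Cpne4 was −3.24. The numbers are not shown to pair libraries: deviations of same-numbered libraries correlated at −0.0191 and 0.044. Of 563 other values for 44 named members, 33 changed sign without a call in either setting. At the depth of these libraries members under 1 CPM support only large differences.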
